A study of Mus musculus with 19 samples.

Results

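The 10 genes described here encode the core of the spindle assembly checkpoint, the activators of its target and the Aurora kinases. They were chosen by symbol and function: Mad2l1, Bub1, Bub1b, Bub3 and Ttk of the checkpoint, Cdc20 and Fzr1, which activate the anaphase-promoting complex/cyclosome (APC/C), and the kinases Aurka, Aurkb and Aurkc. All 10 were found among the 25891 genes of the table, and all 10 passed the filter on low values in each comparison.

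The spindle assembly checkpoint holds a dividing cell in metaphase until its chromosomes are attached to the spindle. The kinase TTK (also MPS1) acts at unattached kinetochores and recruits BUB1, BUB3 and BUBR1, the product of Bub1b. Together with MAD2, the product of Mad2l1, BUBR1 and BUB3 form a complex that holds CDC20 and so keeps the APC/C from marking securin and cyclin B for degradation. CDH1, the product of Fzr1, is the other APC/C activator. It acts after anaphase and, in the oocyte, before meiotic resumption. Aurora A works at the spindle poles, and Aurora B and C work at the centromere in the chromosomal passenger complex. Aurora C is best known from meiotic cells. An MII oocyte rests in metaphase of the second meiosis, whereas a 2cell embryo has passed its first mitosis.

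RNA was sequenced in 19 libraries of 5 oocytes or embryos each by the study's methods. Females of the BL6 strain, 6 to 10 weeks old, received 5 IU of PMSG and, 48 h later, 5 IU of hCG. The groups were 5 libraries of MII oocytes labelled Het (CPEB3+/-), 5 of MII oocytes labelled KO (CPEB3-/-), 5 of 2cell embryos labelled Het and 4 of 2cell embryos labelled KO. The CPEB3-/- females carried LoxP on both Cpeb3 alleles and a Cre transgene under the ZP3 promoter, which is active in the growing oocyte, so the genotype is that of the mother. As controls the study's methods list CPEB3 LoxP/- with the same Cre transgene, or CPEB3+/+, without naming CPEB3+/-. For embryo culture the study mated females of the deletion with wild-type males, while the labels name only males. Zygotes were cultured in M16 medium until 37 h after hCG. The library kit primes on poly(A) tails. A longer tail and more RNA, or fewer cells and less RNA per cell, cannot be told apart in these values.

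The libraries were of similar depth, with an estimated median of 19.7 M fragments and a range of 17.1 to 23.5 M. Values are FPKM (fragments per kilobase of exon and mega-fragments), given as mean ± SD over the libraries of a group. Cpeb3, the deleted gene, averaged 0.0755 ± 0.0240 FPKM over the CPEB3+/- and 0.162 ± 0.0325 FPKM over the CPEB3-/- MII libraries. It was thus not lower in the libraries labelled CPEB3-/- (log2 fold change 0.53, limma adjusted p = 0.0144), and genotype names below stand for labels. All 5 CPEB3-/- MII libraries (lowest 0.131 FPKM), but not the mean of the CPEB3+/- libraries, were above the 0.1 FPKM of the filter. Cpeb3 was thus tested through the group where it is high, and this p supports nothing. The FPKM value covers the whole gene and not only the part between the LoxP sites, so it is a limited check of the deletion. Of 10 oocyte markers, 10 were above 0.1 FPKM in every library. Their summed level ran from 2400 to 2531 FPKM in CPEB3+/- MII libraries, from 1394 to 1982 in CPEB3-/- MII libraries, from 1015 to 1166 in CPEB3+/- and from 718 to 1165 in CPEB3-/- 2cell libraries. The 6 markers of the 2cell stage summed to between 37.7 and 44.9 FPKM in CPEB3+/- and between 45.7 and 60.8 FPKM in CPEB3-/- MII libraries, and to between 383 and 596 FPKM in 2cell libraries. In MII oocytes both sums moved with the genotype, and their part in the differences below was not tested. The highest oocyte markers were Dppa3 (962 to 658 FPKM) and H1foo (641 to 472 FPKM). By group means Zp1, Zp3 and Nlrp5 were higher in CPEB3-/- MII libraries and the other oocyte markers lower. Zfp352 was lower there and the other 2cell markers higher, most of all Zscan4d (1.15 to 9.88 FPKM). Of 10 cumulus cell markers 7 were in the table, and they summed to between 0.272 and 1.05 FPKM. The blood marker in the table, Hba-a1 (1 of 3), was at or under 0.428 FPKM in MII libraries and between 34.3 and 98.6 FPKM in 2cell libraries.

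CPEB proteins bind U-rich elements in 3′UTRs, and such elements were counted in these genes. The motif TTTTAT, the longer motifs TTTTAAAT and also TTTTAAGT, and beside them TTTTACT and then TTTTCAT, none of which contains another, were searched on the transcribed strand of the longest 3′UTR of each gene in GENCODE vM21 (GRCm38). At least 1 was found in 8 of the 10 genes, beside 63.4% of the 17049 genes with an annotated 3′UTR. The 3′UTRs of the 10 had a median of 462 bases against 1185 bases for all genes. Cdc20 (178 bases) and Fzr1 (1287 bases) held none of the motifs in their longest 3′UTR. The stretches around the last motif are shown for the 4 genes with a motif whose RNA changed between the stages in both genotypes. They lie at chr2:118641553-118641582 (plus strand, Bub1b), chr2:172356237-172356266 (minus strand, Aurka), chr11:69051616-69051645 (plus strand, Aurkb) and chr7:7003036-7003065 (plus strand, Aurkc), and capitals mark the motif.
Bub1b: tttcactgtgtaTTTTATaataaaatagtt
Aurka: ttaaaggctattTTTTATgttggagttctg
Aurkb: tgaagaacaacaTTTTATaataaagtctta
Aurkc: gcttgttttctcTTTTATgaagtgatgtta
In Bub1b and Aurkb the motif ran directly into AATAAA, the hexamer that directs cleavage and polyadenylation, 21 and 31 bases before the annotated end of the transcript. In Aurkc the last such hexamer (AATAAA or ATTAAA) began 18 bases after the start of the motif, and none followed the motif of Aurka. A match of letters is a description and not a bound site.

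Levels differed widely among the 10 genes. In CPEB3+/- MII oocytes Mad2l1 had the highest level at 37.3 ± 11.0 FPKM, above the highest library of every other member. Bub1b at 22.0 ± 1.95 FPKM and Cdc20 at 20.7 ± 3.82 FPKM followed, and their ranges overlapped. Aurkc (11.8 ± 1.64 FPKM) and Aurka (9.25 ± 0.715 FPKM) overlapped as well. Bub3, Ttk and Bub1 stood at 4.13 ± 0.652, 1.97 ± 0.1001 and 1.60 ± 0.139 FPKM without overlap between neighbours. Aurkb (0.496 ± 0.208 FPKM) and Fzr1 (0.293 ± 0.0400 FPKM) were lowest and overlapped.
In CPEB3+/- 2cell embryos Mad2l1 (29.4 ± 8.52 FPKM) and Cdc20 (15.2 ± 2.55 FPKM) led. Aurkb, Aurkc, Bub1 and Ttk, from 2.57 ± 0.635 down to 1.60 ± 0.322 FPKM, overlapped in sequence. Bub1b, the second of the 10 in the oocyte, was the ninth in the embryo at 0.387 ± 0.0574 FPKM, beside Fzr1 at 0.361 ± 0.0545 FPKM.

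**Figure D1:**
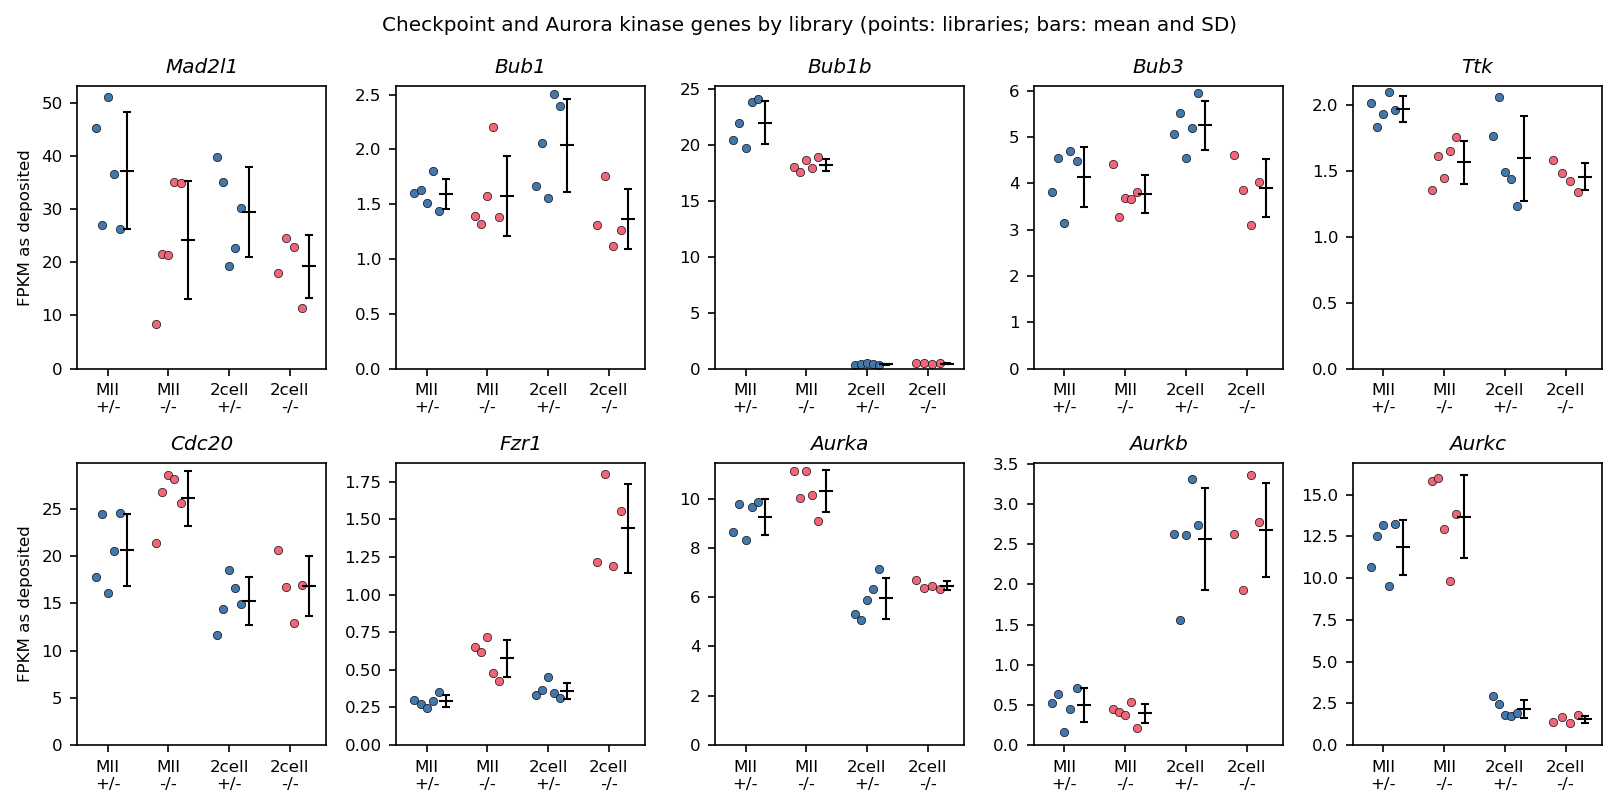
FPKM as deposited (vertical axis, linear from 0, its own range per panel) of the 10 genes in each of the 19 libraries, with CPEB3+/- in blue and CPEB3-/- in red. Bars give the mean and SD. Fzr1 was between 1.19 and 1.80 FPKM in the CPEB3-/- 2cell libraries and at or under 0.717 FPKM in all others, and Bub1b was at or above 17.5 FPKM in all MII and at or under 0.473 FPKM in all 2cell libraries.

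The genotype comparison asked which of these genes differ in amount between oocytes, or embryos, of CPEB3-/- and of CPEB3+/- mothers. Fzr1 rose in CPEB3-/- at both stages, by 1.62-fold in MII oocytes and 3.20-fold in 2cell embryos, and none of the other members was called at either stage. A gene was called where the adjusted p was under 0.05 (limma, Benjamini-Hochberg over all tested genes) and the difference over 1.5-fold. Fold changes are on the scale of log2(FPKM + 0.1), which understates those of low genes. In MII oocytes 1 of 10 members was called, where 12.9% of the 10515 tested genes were. It was higher, as were 5.59% of all genes, and 0 were lower, beside 7.29%. In 2cell embryos the counts were again 1 higher and 0 lower, beside 8.41% and 9.85% of 14051 genes (18.3% called in all). By the unadjusted p, 3 members were under 0.05 in MII oocytes and 5 in 2cell embryos. The share of all genes under that p is not given, so these 2 counts cannot show an excess. The median log2 fold change of the 10 was -0.17 in MII oocytes and -0.07 in 2cell embryos, against 0.01 and -0.01 for all genes. The genotypes did not overlap for 3 members in MII oocytes (Bub1b, Ttk and Fzr1) and for 1 in 2cell embryos (Fzr1), beside 16.3% and 20.0% of all genes. Taken as shares, 3 of 10 lay above the share of all genes and 1 of 10 below it.

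**Figure D2:**
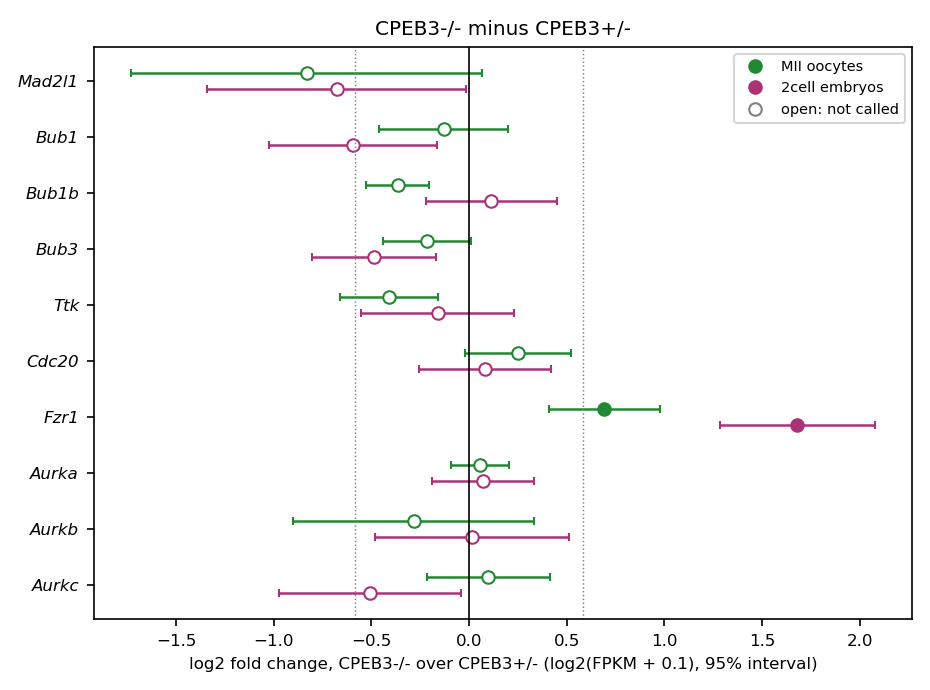
Log2 fold change of CPEB3-/- over CPEB3+/- (horizontal axis, log2(FPKM + 0.1)) of each gene in MII oocytes (green) and 2cell embryos (purple). Whiskers are 95% intervals, filled points are called, and dotted lines mark 1.5-fold. Only Fzr1 has filled points, at 0.69 in MII oocytes and 1.68 in 2cell embryos.

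Fzr1 (ENSMUSG00000020235, chromosome 10, 81366222 to 81378516, minus strand) was lowest or near lowest of the 10 genes in all but the last group. The CPEB3+/- MII libraries held 0.302, 0.270, 0.246, 0.292 and 0.353 FPKM, and the CPEB3-/- MII libraries held 0.652, 0.619, 0.717, 0.476 and 0.424 FPKM. In 2cell embryos the values were 0.332, 0.364, 0.452, 0.348 and 0.310 FPKM in CPEB3+/- and 1.21, 1.80, 1.19 and 1.56 FPKM in CPEB3-/-. Each CPEB3-/- library lay above each CPEB3+/- library of its stage.
Its log2 fold change was 0.69 (SE 0.129, adjusted p = 0.00589) in MII oocytes and 1.68 (SE 0.178, adjusted p = 0.00107) in 2cell embryos. The MII values rest on few fragments, about 25.1 to 30.8 per CPEB3+/- and 41.4 to 68.3 per CPEB3-/- library. The 2cell values rest on about 27.4 to 34.7 and 91.4 to 149 fragments. The difference between the stages in the genotype effect was itself called (log2 1.002, SE 0.201, adjusted p = 0.00559), as for 7.64% of 15786 genes, 3.71% in this direction and 3.93% in the other.
GC content moved with this result. The Fzr1 transcript had 59.9% GC, the most of the 10 genes (from 40.1%). The 382 other genes within 1 percentage point of it had a median log2 fold change of 0.44 in 2cell embryos, and 83 of them (21.7%) were called higher. Of these 382 genes, 14 (3.66%) had as large a value as Fzr1. In MII oocytes the median of 247 such genes was 0.26, and 36 (14.6%) had as large a value. After removal of the GC trend of each library, Fzr1 kept its call in 2cell embryos (log2 fold change 1.26, adjusted p = 0.00289). In MII oocytes it then stood at 0.43 (adjusted p = 0.0434), under 1.5-fold. With a pseudocount of 1 the MII value was 0.25 and the 2cell value 0.81, the latter still called.

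Among the checkpoint kinases and scaffolds, Bub1b and Ttk were lower in CPEB3-/- MII oocytes by less than the 1.5-fold needed for a call. Bub1b (ENSMUSG00000040084, chromosome 2, 118598211 to 118641591, plus strand) encodes BUBR1, a subunit of the checkpoint complex that binds CDC20. It was at 20.4, 21.9, 19.7, 23.8 and 24.1 FPKM in CPEB3+/- and at 18.0, 17.5, 18.6, 17.9 and 18.9 FPKM in CPEB3-/- MII libraries. The genotypes did not overlap, and CPEB3-/- libraries lay close together (SD 3% of the mean, against 8.89%). The log2 fold change was -0.37 (SE 0.0726, adjusted p = 0.00777). It was -0.19 (adjusted p = 0.121) when libraries were scaled to their sum of FPKM, a scaling that raised the median of all genes to 0.15.
In 2cell embryos Bub1b was near its floor in both genotypes, between 0.328 and 0.472 FPKM in CPEB3+/- and between 0.382 and 0.473 FPKM in CPEB3-/-. The log2 fold change there was 0.11 with a 95% interval from -0.22 to 0.45.

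Ttk (ENSMUSG00000038379, chromosome 9, 83834689 to 83872389, plus strand), the kinase at the head of the checkpoint, was at 2.02, 1.83, 1.94, 2.10 and 1.96 FPKM in CPEB3+/- MII libraries. The CPEB3-/- MII libraries held 1.35, 1.62, 1.45, 1.65 and 1.76 FPKM, all below the CPEB3+/- libraries. With a log2 fold change of -0.41 (SE 0.114, adjusted p = 0.0287) the difference was under 1.5-fold. Scaled to the sum of FPKM it was -0.24 (adjusted p = 0.0965). In 2cell embryos Ttk overlapped between genotypes, with a log2 fold change of -0.16 and a 95% interval from -0.55 to 0.23.
Bub1 (ENSMUSG00000027379, chromosome 2, 127801122 to 127831865, minus strand), the kinetochore kinase that recruits other checkpoint proteins, had a log2 fold change of -0.13 in MII oocytes (95% interval from -0.46 to 0.20). In 2cell embryos it was at 1.67, 2.06, 1.56, 2.51 and 2.40 FPKM in CPEB3+/- and at 1.31, 1.76, 1.12 and 1.27 FPKM in CPEB3-/-. These ranges overlapped, and the log2 fold change of -0.59 (SE 0.193, adjusted p = 0.0559) missed the threshold. It passed without CPEB3+/- 2cell replicate C (-0.69, adjusted p = 0.0327) or without CPEB3-/- 2cell replicate B (-0.73, adjusted p = 0.0398). It was -0.26 (adjusted p = 0.347) with sum scaling and -0.27 (adjusted p = 0.326) with the GC trend removed.
Bub3 (ENSMUSG00000066979, chromosome 7, 131560222 to 131571895, plus strand), the partner that brings BUB1 and BUBR1 to kinetochores, was between 4.54 and 5.96 FPKM in CPEB3+/- and between 3.10 and 4.61 FPKM in CPEB3-/- 2cell embryos. Its log2 fold change was -0.49 (SE 0.143, adjusted p = 0.0391), under 1.5-fold, with overlap, and -0.14 (adjusted p = 0.498) with sum scaling. In MII oocytes it was -0.22 with a 95% interval from -0.44 to 0.01.

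Mad2l1 (ENSMUSG00000029910, chromosome 6, 66535390 to 66547220, plus strand) encodes MAD2, the protein that closes around CDC20. It had the largest log2 differences among the members not called, with a wide spread. The CPEB3+/- MII libraries held 45.3, 27.0, 51.0, 36.7 and 26.3 FPKM and the CPEB3-/- MII libraries 8.37, 21.5, 21.3, 35.1 and 34.8 FPKM. The SD was 29.4% and 46.1% of the mean. In 2cell embryos the values were 39.9, 35.1, 19.3, 22.7 and 30.2 FPKM in CPEB3+/- and 18.0, 24.6, 23.0 and 11.3 FPKM in CPEB3-/-. The genotypes overlapped at both stages.
It had a log2 fold change of -0.83 (SE 0.407, adjusted p = 0.163, 95% interval from -1.73 to 0.07) in MII oocytes and -0.68 (SE 0.297, adjusted p = 0.138, 95% interval from -1.34 to -0.01) in 2cell embryos. Without CPEB3-/- MII replicate A, which was lowest, the MII value was -0.47. In 2cell embryos it was -0.43 without CPEB3-/- 2cell replicate D, -0.33 with sum scaling and -0.31 with the GC trend removed.

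Cdc20 (ENSMUSG00000006398, chromosome 4, 118432901 to 118437352, minus strand), the APC/C activator that the checkpoint holds, was between 16.1 and 24.5 FPKM in CPEB3+/- and between 21.3 and 28.6 FPKM in CPEB3-/- MII libraries. Its log2 fold change was 0.25 (adjusted p = 0.164, 95% interval from -0.02 to 0.52). In 2cell embryos it was 0.08 with a 95% interval from -0.26 to 0.42. The 2 APC/C activators thus stood apart in 2cell embryos, where the interval of Fzr1 (1.28 to 2.08) and that of Cdc20 do not meet. Cdc20 shares 53 exonic bases with Elovl1 on the opposite strand, and Fzr1 shares 4 such bases with Mfsd12. Reads from these overlaps cannot be told apart without strand. Cdc20 also shares 1.71% of its runs of 100 bases with the pseudogene Gm7856, whose reads strand would not separate.

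The Aurora kinases were not called between the genotypes. Aurka (ENSMUSG00000027496, chromosome 2, 172356190 to 172370535, minus strand) was between 8.32 and 9.85 FPKM in CPEB3+/- and between 9.11 and 11.1 FPKM in CPEB3-/- MII libraries, with a log2 fold change of 0.06 (95% interval from -0.09 to 0.21). In 2cell embryos it was 0.07 (95% interval from -0.19 to 0.33). With sum scaling these values were 0.23 in MII oocytes and 0.42 (adjusted p = 0.0457) in 2cell embryos, under 1.5-fold.
Aurkb (ENSMUSG00000020897, chromosome 11, 69045647 to 69051664, plus strand) had wider intervals. Its log2 fold change was -0.28 (95% interval from -0.90 to 0.33) in MII oocytes, where it rests on about 11.6 to 40.3 fragments, and 0.01 (95% interval from -0.48 to 0.51) in 2cell embryos.
Aurkc (ENSMUSG00000070837, chromosome 7, 6995300 to 7003091, plus strand) was between 9.55 and 13.3 FPKM in CPEB3+/- and between 9.84 and 16.0 FPKM in CPEB3-/- MII libraries. The log2 fold change was 0.10 (95% interval from -0.22 to 0.42) in MII oocytes and -0.51 (adjusted p = 0.118, 95% interval from -0.97 to -0.04) in 2cell embryos, or -0.17 there with sum scaling.

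The Aurkc values are uncertain, because 50.5% of the runs of 100 bases of its longest transcript also occur in other genes. The closest copy is the processed pseudogene Gm12463 (chromosome 4, 44752277 to 44753125, minus strand), 99.3% identical over 848 bases. Its row, examined after its values were seen, was far above that of Aurkc: 368 ± 9.30 FPKM in CPEB3+/- MII, 280 ± 62.5 FPKM in CPEB3-/- MII, 51.2 ± 5.74 FPKM in CPEB3+/- 2cell and 32.6 ± 7.42 FPKM in CPEB3-/- 2cell libraries. The coding sequences of Aurkb and Aurkc are 74.8% identical, with 25 bases as the longest identical run, so reads of these genes are not shared at that length.
When the fragments of Gm12463 were added to those of Aurkc, the Aurkc row was 4.36% to 13.8% of the sum. The sum over the length of Aurkc was 217 ± 5.23 FPKM and 170 ± 34.5 FPKM in MII oocytes and 30.7 ± 3.61 FPKM and 19.7 ± 4.18 FPKM in 2cell embryos, CPEB3+/- before CPEB3-/-. Its log2 fold change was -0.48 (adjusted p = 0.0610) in MII oocytes, a change of sign against the Aurkc row alone. In 2cell embryos it was -0.71 (adjusted p = 0.0184) and called. The sum was not examined under other settings. Gm12463 alone was at -0.73 (adjusted p = 0.0179) in 2cell embryos and called. That call was lost with sum scaling (-0.38, adjusted p = 0.159) and quantile scaling (-0.45, adjusted p = 0.0864). It was also lost without CPEB3-/- 2cell replicate D (-0.66, adjusted p = 0.0557). Which gene the reads of the sum came from was not tested.

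The comparison of 2cell embryos with MII oocytes asked how the RNAs of these genes change over fertilization and the first division. Whether RNA of an embryo was maternal or newly made was not tested. In CPEB3+/- Aurkb rose, and Bub1b, Aurkc, Aurka and Cdc20 fell. In CPEB3-/- Fzr1 rose beside Aurkb, and the same 4 genes fell. These are 1 of 10 higher and 4 of 10 lower in CPEB3+/-, beside 38.0% and 28.5% of 15786 genes (66.6% called in all). In CPEB3-/- they are 2 higher and 4 lower, beside 38.2% and 27.0% (65.1% in all). The groups did not overlap for 4 and 6 of the 10, beside 58.9% and 59.3%. The median log2 fold change of the 10 was -0.56 in CPEB3+/- and -0.36 in CPEB3-/-, against 0.20 and 0.21 for all genes. FPKM are relative to all RNA of a library, so amounts per embryo were not compared. With libraries scaled to their sum of FPKM the median of all genes in CPEB3+/- was -0.17, and with quantile scaling it was -0.24. Under other settings 4 to 7 members were called in CPEB3+/- and 5 to 8 in CPEB3-/-.

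**Figure D3:**
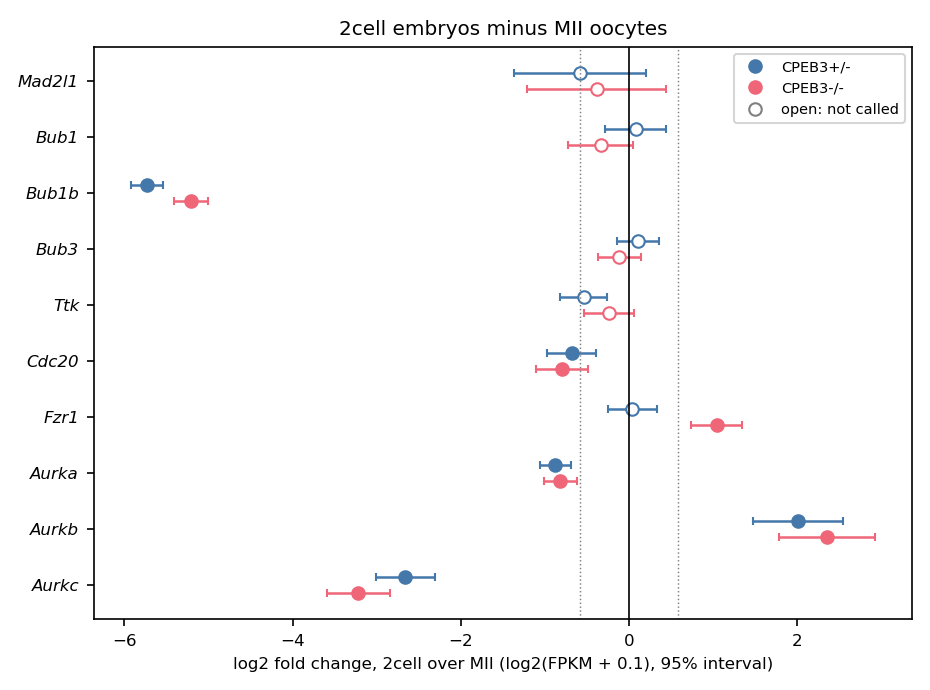
Log2 fold change of 2cell embryos over MII oocytes (horizontal axis, log2(FPKM + 0.1)) in CPEB3+/- (blue) and CPEB3-/- (red), with 95% intervals, filled points where called and dotted lines at 1.5-fold. Bub1b stands farthest left at -5.73 and -5.21, Aurkb farthest right at 2.01 and 2.35, and Fzr1 differs between the genotypes (0.04 and 1.04).

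Bub1b had the largest change, from 22.0 ± 1.95 FPKM in MII oocytes to 0.387 ± 0.0574 FPKM in 2cell embryos of CPEB3+/-. This is a log2 fold change of -5.73 (SE 0.0913, adjusted p = 3.61e-18), or 53.1-fold. In CPEB3-/- it was -5.21 (SE 0.0968, adjusted p = 1.86e-17), or 37.0-fold. The difference of 0.52 between these changes had an adjusted p of 0.0225 and was under 1.5-fold. Bub1, its partner kinase, lay between 1.12 and 2.51 FPKM in all groups, with stage values of 0.08 (95% interval from -0.28 to 0.45) and -0.33 (95% interval from -0.72 to 0.05). The value of Bub1 in CPEB3-/- was called with sum scaling (-0.72, adjusted p = 0.00108) and with quantile scaling (-0.64, adjusted p = 0.00414).
The 2 Aurora kinases of the passenger complex moved in opposite directions. Aurkb was at 0.524, 0.637, 0.168, 0.449 and 0.704 FPKM in CPEB3+/- MII libraries and at 2.63, 1.55, 2.62, 3.31 and 2.74 FPKM in CPEB3+/- 2cell libraries, without overlap (log2 fold change 2.01, SE 0.257, adjusted p = 1.14e-06). Aurkc was at 10.7, 12.5, 13.2, 9.55 and 13.3 FPKM in the former and at 2.92, 2.44, 1.78, 1.75 and 1.90 FPKM in the latter (log2 fold change -2.66, SE 0.166, adjusted p = 5.84e-11). In CPEB3-/- the changes were 2.35 and -3.22, both without overlap. Gm12463 fell with Aurkc, by 3.09 and 3.25 on the log2 scale in CPEB3+/- and CPEB3-/-.
Aurka fell from 9.25 ± 0.715 to 5.95 ± 0.819 FPKM in CPEB3+/- (log2 fold change -0.88, SE 0.0876, adjusted p = 4.57e-08) and by 0.81 on the log2 scale in CPEB3-/-. Cdc20 fell from 20.7 ± 3.82 to 15.2 ± 2.55 FPKM (log2 fold change -0.68, SE 0.138, adjusted p = 0.000245) and by 0.80 in CPEB3-/-. In CPEB3+/- its call was lost with the values as deposited (-0.43, adjusted p = 0.0161). Fzr1 was at 0.04 (95% interval from -0.25 to 0.33) in CPEB3+/- and rose by 1.04 (SE 0.146, adjusted p = 3.92e-06) in CPEB3-/-. With the GC trend removed the rise in CPEB3-/- was 0.49, and with a pseudocount of 1 it was 0.55, both under 1.5-fold.
Ttk in CPEB3+/- was at -0.54 (adjusted p = 0.00143), under 1.5-fold. It passed 1.5-fold without CPEB3+/- MII replicate B (-0.60) or CPEB3+/- 2cell replicate B (-0.63), and was called with sum scaling (-1.04, adjusted p = 4.5e-07) and quantile scaling (-0.77, adjusted p = 7.54e-05). Ttk in CPEB3-/-, at -0.24 and not called, was called with sum scaling (-0.63, adjusted p = 0.000305). Bub3 was at 0.11 and -0.11 in the 2 genotypes, and Mad2l1 at -0.58 and -0.38, none of them called. The Mad2l1 value in CPEB3+/- was called with sum scaling (-1.12, adjusted p = 0.00661) and quantile scaling (-0.82, adjusted p = 0.0432). Without CPEB3-/- MII replicate A the Mad2l1 value in CPEB3-/- was -0.80 (adjusted p = 0.0371) and called. Aurkc, at -0.56 (adjusted p = 0.174), was not called for a difference in the genotype effect between stages.

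The ratio of 2 genes within a library was taken as that of FPKM + 0.1, as deposited, so the ratios of low genes depend on this offset. For 4 ratios and 2 stages the mean log2 ratio was compared between the genotypes by a two-sided exact permutation test, adjusted over the 8 tests. The smallest p these libraries allow is 0.00794 at either stage, so a single ratio that separates the genotypes completely can reach an adjusted p of 0.0635 and no lower. The ratio of Cdc20 to Fzr1, the 2 APC/C activators, was 4.77, 4.97, 5.07, 5.22 and 5.20 (log2) in CPEB3+/- 2cell libraries and 3.98, 3.15, 3.34 and 3.36 in CPEB3-/- 2cell libraries. These did not overlap, and the difference was -1.59 (exact permutation p = 0.00794, adjusted p = 0.0635). It was -1.85 with no offset and -0.70 with an offset of 1. In MII oocytes it was -0.42 (exact permutation p = 0.0635, adjusted p = 0.127), or -0.61 with no offset and 0.050 with an offset of 1.
The ratio of Bub1b to Bub1 was higher by 0.70 in CPEB3-/- 2cell embryos (exact permutation p = 0.0238, adjusted p = 0.0952) and differed by -0.23 in MII oocytes (exact permutation p = 0.159, adjusted p = 0.212). The ratio of Mad2l1 to Cdc20, the checkpoint protein and its target, differed by -1.08 in MII oocytes (exact permutation p = 0.0476, adjusted p = 0.127) and by -0.76 in 2cell embryos (exact permutation p = 0.143, adjusted p = 0.212). The ratio of Aurkc to Aurkb was 4.41 ± 0.685 in CPEB3+/- and 4.81 ± 0.549 in CPEB3-/- MII oocytes (exact permutation p = 0.365, adjusted p = 0.365). In 2cell embryos it was -0.23 ± 0.606 and -0.75 ± 0.462 (exact permutation p = 0.190, adjusted p = 0.218). The row of Aurkc thus lay above that of Aurkb in every oocyte library, and below it in all 4 CPEB3-/- 2cell libraries, while in CPEB3+/- 2cell embryos the ratio lay on both sides of 0.

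**Figure D4:**
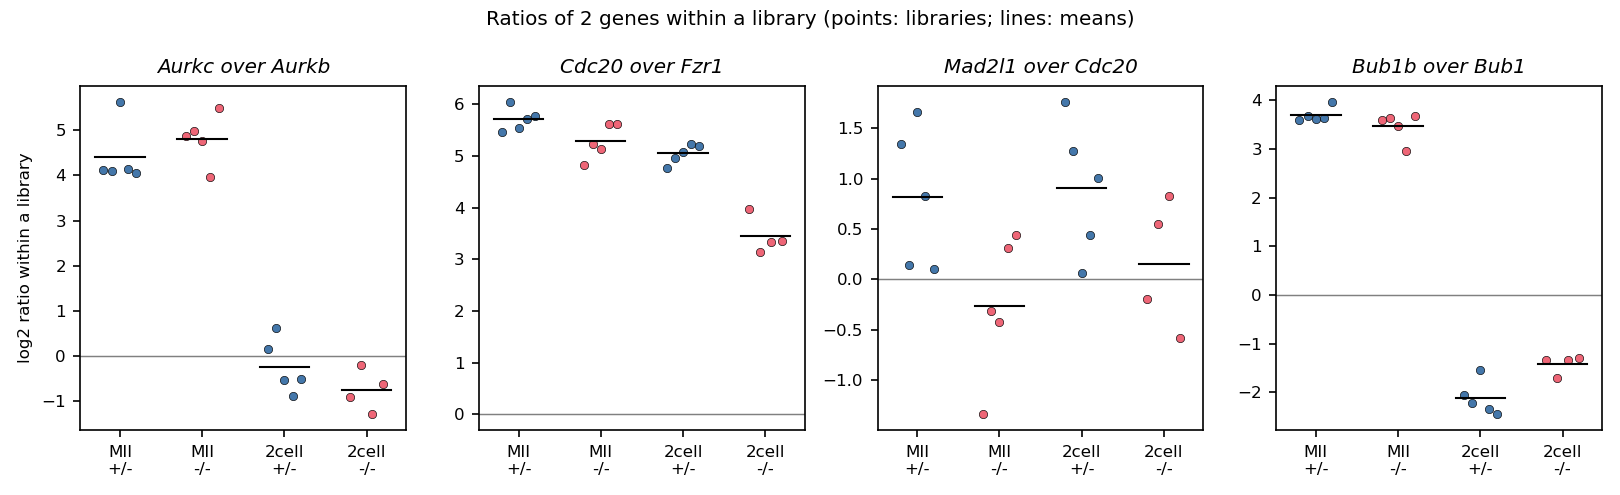
Log2 ratio of 2 genes within each library (vertical axis, of FPKM + 0.1) by stage and genotype, CPEB3+/- in blue and CPEB3-/- in red, with lines at the group means. The ratio of Cdc20 to Fzr1 lies between 4.77 and 5.22 in CPEB3+/- and between 3.15 and 3.98 in CPEB3-/- 2cell embryos.

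The partners of these genes were examined in 6 lists. In 2cell embryos 9.85% of all genes fell and 8.41% rose in CPEB3-/-, and in MII oocytes 7.29% fell and 5.59% rose. These shares stand beside each count of calls below, and the lists were not tested against them or each other. Of 10 genes of the KMN network, which joins centromeres to microtubules and carries the checkpoint proteins, 4 fell in CPEB3-/- (Zwint, Spc25, Dsn1 and Ndc80) and 0 rose. Their median log2 fold change was -0.68 against -0.01 for all genes. Zwint, which binds KNL1, fell from 4.22 ± 0.849 to 1.70 ± 0.644 FPKM (log2 fold change -1.36, SE 0.256, adjusted p = 0.00725). Spc25, of the NDC80 complex, fell from 5.84 ± 0.743 to 2.53 ± 0.485 FPKM (log2 fold change -1.24, SE 0.174, adjusted p = 0.00235). The genotypes did not overlap for the 4 genes. In MII oocytes 9 of the 10 were tested, 2 fell (Dsn1 and Ndc80) and 1 rose (Spc24), each with overlap between the genotypes.
Of 7 checkpoint partners, 5 were tested in MII oocytes and 1 fell, and 6 were tested in 2cell embryos and 2 fell. Mad2l1bp, whose product p31comet helps to take the checkpoint complex apart, fell in MII oocytes from 12.0 ± 1.57 to 6.45 ± 2.07 FPKM (log2 fold change -1.05, adjusted p = 0.0184). Spdl1, which brings dynein to kinetochores, fell in 2cell embryos from 8.66 ± 1.33 to 4.44 ± 0.325 FPKM (log2 fold change -0.99, adjusted p = 0.00162). Trip13, the ATPase that works with p31comet, was low there at 0.217 ± 0.0788 and 0.0888 ± 0.0275 FPKM (log2 fold change -0.76, adjusted p = 0.0313). All 5 CPEB3+/- 2cell libraries, but not the mean of the CPEB3-/- libraries, were above the 0.1 FPKM of the filter, so Trip13 was tested through the group where it is high and its place in the count supports nothing. Its adjusted p was between 0.0329 and 0.0882 with 1 library left out, and the call was lost without CPEB3+/- 2cell replicate B or E or any 1 of the 4 CPEB3-/- 2cell libraries.

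Of 6 passenger complex and centromere genes, 0 were called in MII oocytes and 1 fell in 2cell embryos. That was Sgo1, the protector of centromeric cohesion, from 5.49 ± 0.507 to 3.10 ± 0.467 FPKM (log2 fold change -0.87, adjusted p = 0.00298). It was -0.56, under 1.5-fold, with the GC trend removed. In MII oocytes limma called 0, while the genotypes did not overlap for 2 of the 6, beside 16.3% of all genes. Of these, Birc5 was higher and Sgo2a lower in CPEB3-/-. An unadjusted p under 0.05 was found for 4 of the 6. No share of all genes under that p is given here or for the next list, so such counts cannot show an excess.
Of 7 Aurora A cofactors, limma called 0 of 6 tested in MII oocytes (1 with an unadjusted p under 0.05), and in 2cell embryos 2 fell and 1 rose. Tpx2, the activator of Aurora A, fell from 2.61 ± 0.424 to 1.46 ± 0.243 FPKM (log2 fold change -0.85, adjusted p = 0.00758), and Tacc3, a spindle substrate of Aurora A, from 4.22 ± 0.931 to 2.25 ± 0.450 FPKM (log2 fold change -0.93, adjusted p = 0.0111). Plk1, a mitotic kinase activated by Aurora A, rose from 2.57 ± 0.510 to 4.64 ± 0.595 FPKM (log2 fold change 0.79, adjusted p = 0.0120). Its value was 0.50 (adjusted p = 0.0619) with the GC trend removed.

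Of 18 genes of the APC/C machinery, 17 were tested in MII oocytes and 1 fell. In 2cell embryos 2 fell (Cdc26 and Anapc11) and 1 rose. Cdc26, a small subunit of the APC/C, fell at both stages, from 2.83 ± 0.228 to 1.33 ± 0.309 FPKM in MII oocytes (log2 fold change -1.16, adjusted p = 0.00139) and from 1.37 ± 0.131 to 0.853 ± 0.107 FPKM in 2cell embryos (log2 fold change -0.68, adjusted p = 0.00962). Ube2s, the enzyme that extends ubiquitin chains, rose in 2cell embryos from 11.9 ± 0.542 to 18.8 ± 1.15 FPKM (log2 fold change 0.60, adjusted p = 0.00476). It was just over 1.5-fold, and under it without CPEB3+/- 2cell replicate B (0.58) or CPEB3-/- 2cell replicate B (0.56). The median of the list was 0.03 in MII oocytes and 0.02 in 2cell embryos, near that of all genes.
Of 5 APC/C targets, 1 fell in MII oocytes and 2 in 2cell embryos, and 0 rose. Ccnb1, cyclin B1, fell in MII oocytes from 160 ± 33.7 to 89.1 ± 31.2 FPKM (log2 fold change -0.999, adjusted p = 0.0403) and in 2cell embryos from 60.6 ± 8.53 to 34.9 ± 7.33 FPKM (log2 fold change -0.87, adjusted p = 0.0111). The MII call was lost without CPEB3+/- MII replicate A, C or D or CPEB3-/- MII replicate B or C, with an adjusted p of at most 0.0950. Gmnn, geminin, fell in 2cell embryos from 57.0 ± 7.97 to 30.6 ± 4.22 FPKM (log2 fold change -0.95, adjusted p = 0.00206).
Scaling to the sum of FPKM, which raised the median of all genes in 2cell embryos to 0.26, ended the 2cell calls of Trip13 (-0.56), Sgo1 (-0.52), Tacc3 (-0.59), Tpx2 (-0.51), Cdc26 (-0.36) and Ccnb1 (-0.51), each still below 0 on the log2 scale. The call of Ccnb1 in MII oocytes was also lost with quantile scaling (-0.78, adjusted p = 0.0559) and with no filter on low values (adjusted p = 0.0870). With a pseudocount of 1 the 2cell values of Cdc26 (-0.39), Trip13 (-0.16) and Ube2s (0.56) were under 1.5-fold, as was that of Cdc26 with a filter of 1 FPKM (-0.57). Trip13 was also not called with the GC trend removed (adjusted p = 0.0741) or with no filter (adjusted p = 0.0590).

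**Figure D5:**
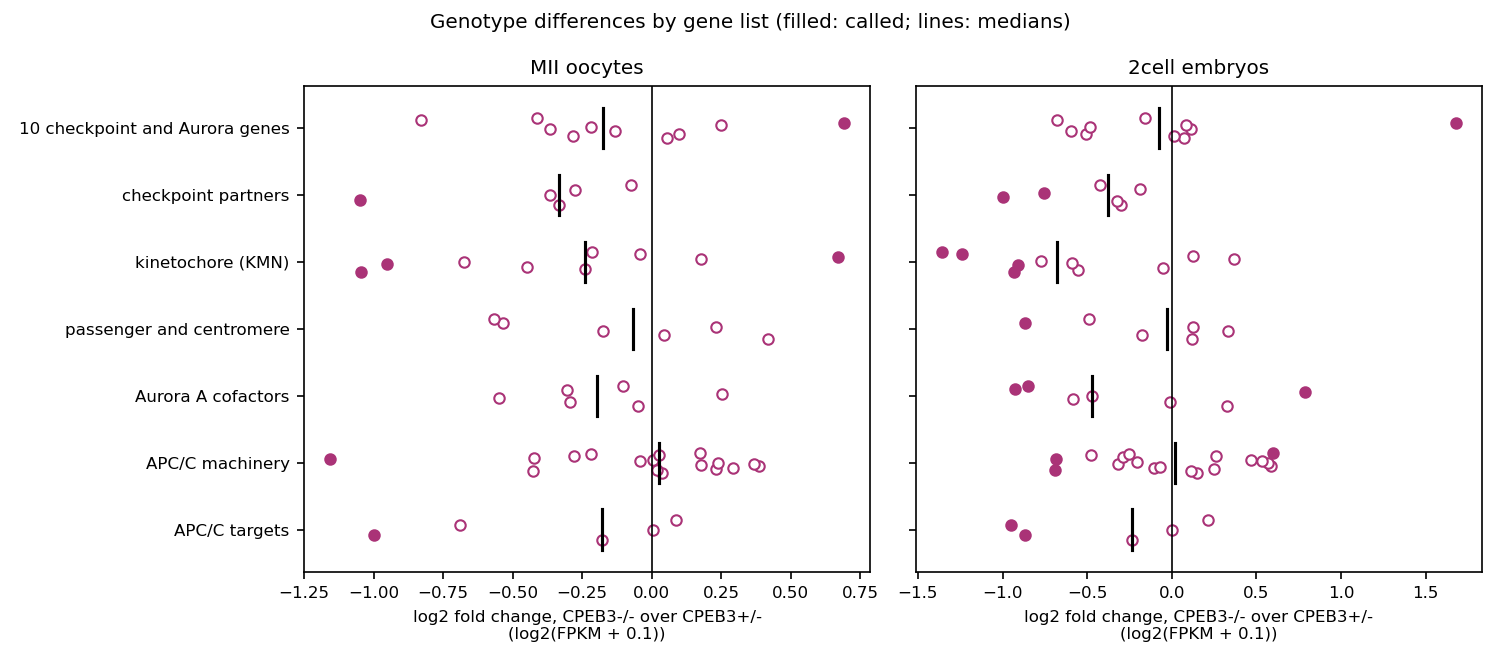
Log2 fold change of CPEB3-/- over CPEB3+/- (horizontal axis, log2(FPKM + 0.1)) of each tested gene of the 10 checkpoint and Aurora genes and the 6 lists, in MII oocytes and 2cell embryos. Filled points are called and lines are medians. The kinetochore list has 4 filled points below 0 and a median of -0.68 in 2cell embryos.

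Over the stages the partners of Aurora A and the APC/C targets fell for the most part in CPEB3+/-. Of 7 Aurora A cofactors 5 fell and 1 rose, and of 5 APC/C targets 3 fell (Pttg1, Ccnb2 and Ccnb1), beside 28.5% lower and 38.0% higher of all genes. Tacc3 fell from 24.9 ± 1.63 to 4.22 ± 0.931 FPKM, while Ajuba, an Aurora A activator, rose from 0.00984 ± 0.0145 to 2.07 ± 0.521 FPKM. Ajuba was at or under 0.0355 FPKM in every MII library and passed the filter only through the 2cell libraries. Its place in the count thus supports nothing. Pttg1, securin, fell from 279 ± 20.4 to 53.4 ± 9.70 FPKM.
Of 18 genes of the APC/C machinery 8 fell and 3 rose. Among the rises, Anapc13 was at or under 0.0803 FPKM in CPEB3+/- MII and at or above 0.107 FPKM in CPEB3+/- 2cell libraries. The 0.1 FPKM of the filter lies between, so the place of Anapc13 in the count supports nothing. Anapc4, a scaffold subunit, fell from 3.51 ± 0.0978 to 0.329 ± 0.0682 FPKM, and Ube2c, the enzyme that starts ubiquitin chains, rose from 4.59 ± 1.04 to 30.2 ± 5.63 FPKM. Of 7 checkpoint partners 6 were tested, of which 2 fell and 2 rose (Mad2l1bp and Trip13). Trip13 was at or under 0.0985 FPKM in every MII library and passed the filter only through the 2cell libraries. Its place in this count supports nothing either. Zw10, of the RZZ complex, fell from 2.50 ± 0.319 to 0.739 ± 0.154 FPKM, and Mad2l1bp rose from 12.0 ± 1.57 to 111 ± 7.26 FPKM. Of 10 KMN genes 5 fell and 2 rose, with Ndc80 falling from 6.01 ± 1.47 to 0.977 ± 0.164 FPKM and Zwint rising from 0.640 ± 0.0377 to 4.22 ± 0.849 FPKM. The other rise, Nsl1, was at or under 0.0856 FPKM in every MII library. It passed the filter only through the 2cell libraries, so its place in the count supports nothing. Of 6 passenger complex and centromere genes 2 fell, Haspin and Cdca8, borealin, the latter from 32.3 ± 1.21 to 18.0 ± 2.17 FPKM.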

How the data were processed

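RNA of MII oocytes and 2cell embryos was compared in 19 libraries grouped by their labels. Per the labels and the study's methods, the authors trimmed reads with Trim Galore 0.4.1, mapped them to GRCm38 with HISAT2 2.0.5 and computed the deposited FPKM in SeqMonk. The table is named as if it held counts, but 0.00203% of its values are whole numbers above 0, so it was read as FPKM and no count model was run. There were 0 columns of values not used. Depth was estimated from the steps of low values (45.8% within 0.05 of a whole number of fragments in the median library, 10% by chance). The methods give quadruplicates and the labels 5, 5, 5 and 4 libraries. All labelled libraries were used, and nothing says that they came from separate animals, so p-values measure the spread between these libraries.

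Scaling factors per library came from the trimmed mean of its log ratios (trims of 30% and, for levels, 5%). Genes with at least 0.1 FPKM in 5 MII libraries, 4 2cell libraries or, for stage and interaction, 4 of all were fitted with limma 3.58.1 under R 4.3.3 on the log2(FPKM + 0.1) scale, with a variance trend. Within a stage genotype was the term, and all 19 libraries with group means were fitted for stage and interaction. Genes with a Benjamini-Hochberg adjusted p under 0.05 and over 1.5-fold were called. The fit was tested on simulated data. Ratios used exact permutation tests over 252 and 126 splits. Gene models, 3′UTRs and copies came from GENCODE vM21 (GRCm38), which matched 25640 rows, 97.1% of them by coordinates. Sequences were handled with Biopython 1.88, values with pandas 2.3.3, numpy 2.4.6 and scipy 1.17.1 and figures with matplotlib 3.10.9 (Python 3.11.15).

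The 10 members and the lists were chosen with earlier results of these data known. Named beside the members were, from each list and genotype comparison, up to 2 called rises and 2 called falls without overlap, and the largest called rise and fall over the stages in CPEB3+/-. Other genes are named where a count is small and were chosen after their values were seen. Alternatives were the values as deposited, sum and quantile scaling, a pseudocount of 1, no filter, a filter of 1 FPKM, the replicate letter as a block, removal of the loess trend (span 0.5) with GC content, no variance trend, all 19 libraries in 1 fit and each library left out. Adding the reads of Gm12463 to Aurkc was chosen after seeing the data.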

Additional observations from a re-analysis of the deposited data

Results flagged for a closer look

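Fzr1 was flagged because its genotype difference was larger in 2cell embryos than in MII oocytes by a test of the difference itself. The log2 fold change of CPEB3-/- over CPEB3+/- was 1.002 higher in 2cell embryos (SE 0.201, limma adjusted p = 0.00559, 15786 genes tested). All 4 CPEB3-/- 2cell libraries and all 5 CPEB3-/- MII libraries lay above the CPEB3+/- libraries of their stage. The value was 0.78 (adjusted p = 0.0192) with the trend with GC content removed and 0.53 (adjusted p = 0.00210, under 1.5-fold) with a pseudocount of 1. In the 40 sets of libraries examined (10 genes in 4 groups), no library stood apart from its group by Dixon's test, which flags about 1 set in 20 by chance.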

How the results depend on the processing

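Over 409 member values under other settings, 375 kept their direction and side of the threshold, and so did 617 of 627 with 1 library left out. The rise of Fzr1 in 2cell embryos was called under all 10 other settings (log2 fold change from 0.81 to 1.98) and with each of 9 libraries left out (1.56 to 1.77). In MII oocytes it was lost with a pseudocount of 1, with the GC trend removed and with a filter of 1 FPKM, which leaves Fzr1 out, so that 0 members were called in each. The interaction of Fzr1 was lost with a pseudocount of 1 (0 members called).

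The number of genes called was 481 of MII, 1178 of 2cell, 5292 of CPEB3+/- stage, 5269 of CPEB3-/- stage and 790 of interaction comparisons with a pseudocount of 1 (main 1355, 2565, 10508, 10284 and 1206). With a filter of 1 FPKM it was 774, 1496, 5283, 5146 and 795, where fewer genes were tested. The labels do not say that the replicate letters mark a shared animal or day, and same-letter libraries of the 2 genotypes correlated between -0.18 and 0.12, so the samples were not taken as paired. With the replicate block 824 genes were called in MII and 414 in 2cell comparisons. Among genes examined under the block, the calls of Mad2l1bp and Ccnb1 in MII and of Ccnb1, Gmnn, Trip13, Sgo1, Plk1, Tacc3, Tpx2, Cdc26, Ube2s and Gm12463 in 2cell comparisons were not made under the block. Dsn1, Ndc80, Spc24 and Anapc11 were not examined under other settings in the genotype comparisons. The count of members called in 2cell embryos was 1 to 2 with 1 library left out.

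Scaling to the sum of FPKM moved the median of all genes to 0.15 in MII and 0.26 in 2cell comparisons. The share of calls that were higher was then 70.1% and 81%, against 43.4% and 46% in the main analysis, and 57.1% in MII oocytes with the values as deposited. For the CPEB3+/- stage change the share was 57.2%, 45.6% with sum scaling and 41.4% with quantile scaling.

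Other members changed sign without a call on either side. With sum scaling these were Bub1 in MII (0.037), Ttk in 2cell (0.17) and, for the CPEB3+/- stage change, Bub1 (-0.43), Bub3 (-0.42) and Fzr1 (-0.36). With quantile scaling they were Bub1 (-0.16), Bub3 (-0.12) and Fzr1 (-0.44) for that change, and with the values as deposited Bub3 for the CPEB3-/- stage change (0.040). With the GC trend removed they were Bub1 (0.094), Aurka (-0.053) and Aurkc (-0.017) in MII, Ttk (0.064), Cdc20 (-0.19), Aurka (-0.033) and Aurkb (-0.15) in 2cell, Fzr1 for the CPEB3+/- stage change (-0.29), and Bub1 (0.058) and Ttk (0.13) for the CPEB3-/- stage change. With 1 library left out, Aurkb in 2cell ranged from -0.14 to 0.14 and Fzr1 for the CPEB3+/- stage change from -0.0059 to 0.085. With the reads of Gm12463, Aurkc in MII was -0.48 and the ratio of Aurkc to Aurkb in MII -0.17. The ratio of Cdc20 to Fzr1 in MII was 0.050 with a pseudocount of 1. The cause was not tested. Differences at the low levels of Fzr1 and Aurkb in MII oocytes, under 70 fragments per library, are limited by depth.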

Other observations

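The longest 3′UTR of Mad2l1 in GENCODE vM21 has 6802 bases, with 16 of the U-rich motifs named above, or 2.35 per kilobase. Bub1, with a 3′UTR of 121 bases and 1 motif, had the most per kilobase of the 10 genes (8.26), and Bub1b followed with 2 motifs in 272 bases (7.35 per kilobase). Counting any annotated transcript in place of the longest 3′UTR, 9 of the 10 genes held a motif, beside 65.8% of all genes. Cdc20 was the gene added, and Fzr1 held none in either of its 2 annotated 3′UTRs.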
